A study of Mus musculus with 18 samples.

Results

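The aminoacyl-tRNA synthetases of mouse adipocytes were examined as a family of 38 protein-coding genes among the 33440 genes to which the reads were assigned. Members were chosen by gene symbol alone and not by a measured value, though earlier results of these data were known. They comprised 21 cytosolic enzymes and 17 mitochondrial enzymes, the latter carrying the suffix 2 in their symbols. Gars and Kars, whose products charge glycine and lysine tRNAs in both compartments, were counted as cytosolic. All 38 genes passed the filter on low counts in both experiments.

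An aminoacyl-tRNA synthetase joins an amino acid to its tRNA, the charged form that ribosomes use to read codons. The cytosolic and the mitochondrial sets are both encoded in the nucleus, and most amino acids have a separate enzyme for each compartment. Several cytosolic enzymes are held in a large assembly, the multi-tRNA synthetase complex, by the scaffold proteins Aimp1, Aimp2 and Eef1e1. Many cytosolic synthetase genes are known targets of ATF4, the transcription factor of the amino acid response, and Wars is a known interferon-inducible gene.

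RNA was sequenced in 2 experiments on C57BL/6 mice that addressed which adipocyte genes depend on IRF3, a transcription factor of the innate immune response. In the first, adipocytes were differentiated from the stromal vascular fraction (SVF) of inguinal fat of IRF-2D mice, which carry a Cre-dependent, constitutively active Irf3 allele named IRF3-2D in the methods. They received AAV with Cre (FI3OE, 3 libraries) or AAV with GFP (WT SVF, 3 libraries). All 6 libraries therefore came from cells with the same allele, and FI3OE cells differed from WT SVF cells in Cre as well as in active IRF3. In the second, RNA on tagged ribosomes was isolated by translating ribosome affinity purification (TRAP) from frozen epididymal fat of mice labelled adipocyte IRF3KO (FI3KO TRAP, 6 libraries) or WT (WT TRAP, 6 libraries), all on a high-fat diet (HFD) for 8 weeks in thermoneutrality. The series design names these mice FI3KO-Ad-NuTRAP and Ad-NuTRAP, and Adipoq-Cre, whose promoter is active in adipocytes, is listed among the strains of the study. The labels give no ages, while the methods state that inguinal fat for cultures was taken at 4 to 6 weeks of age and that HFD feeding in the study began at 8 weeks of age. The labels call the samples biological replicates without saying whether each came from a separate mouse or culture, so p-values measure the spread between these libraries.

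Libraries held 21541334 to 36932452 reads in the SVF experiment and 25259869 to 40490283 in the TRAP experiment, and the synthetases took 0.1649% to 0.3359% of them. Irf3 was at 91.4–102.0 CPM (estimated counts scaled to the library total) in FI3OE and 56.8–57.9 CPM in WT SVF. In FI3KO TRAP libraries Irf3 was at 12.5–20.0 CPM, which overlapped the 16.4–22.8 CPM of WT TRAP, whereas 1 of its transcripts had 0 reads in all 6 FI3KO TRAP libraries and 163.6–388.1 reads in each WT TRAP library. The 16 adipocyte markers summed to 57126–71616.6 TPM (transcript abundance per length, scaled to the library) over the TRAP libraries and 18983.6–20649.3 TPM over the SVF libraries. The 15 macrophage markers summed to 3211.7–3403.8 TPM in the SVF libraries. These cultures may thus also have held RNA of other cells, but which cells the marker RNA came from was not tested. In TRAP the macrophage markers summed to 25.0–56.8 TPM in FI3KO and 56.9–147.0 TPM in WT. WT TRAP replicates 1 and 2 were closer to each other than any other pair of libraries of a group, with a chi-square per degree of freedom of 2.596 against at least 9.667 for the other WT TRAP pairs and at least 4.224 for the SVF pairs. They differed by more than sampling noise and were kept as separate libraries. In FI3KO TRAP replicates 1 and 2 also stood apart from replicates 3 to 6. Chi-square per degree of freedom there was 134.9–325.1 between the sets and 19.76–102.3 among replicates 3 to 6. In WT TRAP the values overlapped, at 90.12–158.2 between the sets and 9.667–153.2 among replicates 3 to 6. The split into these sets is known from earlier results of these data and not from the labels. TRAP results are therefore given within both sets as well.

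Cytosolic synthetase transcripts were more abundant than mitochondrial ones in both WT groups. On the TPM scale, which is per transcript length and allows genes to be compared, the median level of the 21 cytosolic genes was 65.3 TPM in WT SVF and 42.4 TPM in WT TRAP. The 16 mitochondrial genes other than Lars2 had medians of 19.9 and 16.1 TPM. Lars2 is left out of these levels because its reads on a transcript annotated for nonsense-mediated decay ran from 0 to 42197 between libraries. Over these 37 genes the mean levels of WT SVF and WT TRAP had a Spearman's rho of 0.89, given as a description since the 2 preparations differed in depot, diet and assay while gene lengths and annotation were shared.

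Gars, glycyl-tRNA synthetase, had the highest level outside Lars2 in both, at 158 ± 4.83 TPM in WT SVF (SD, n = 3) and 95 ± 9.85 TPM in WT TRAP (SD, n = 6). Sars, the seryl enzyme, followed at 156 ± 2.75 and 88.3 ± 9.86 TPM, and Eprs, a single protein that charges both glutamate and proline tRNAs, at 144 ± 3.64 and 87.3 ± 10.3 TPM. Within WT TRAP these 3 genes overlapped in their spread, and in WT SVF Gars and Sars did. Tarsl2, a second cytosolic threonyl enzyme, was the lowest cytosolic gene at 5.12 ± 0.251 and 5.17 ± 1.32 TPM. The lowest of all was Mars2, mitochondrial methionyl-tRNA synthetase, at 2.63 ± 0.26 TPM in WT SVF and 1.66 ± 0.139 TPM in WT TRAP. Iars2, the mitochondrial isoleucyl enzyme, was the most abundant mitochondrial gene outside Lars2, at 69.5 ± 2.94 and 61.2 ± 2.08 TPM. Some genes ranked differently in the 2 preparations, among them Iars (65.3 ± 3.81 TPM in WT SVF, 19.0 ± 3.62 TPM in WT TRAP) and Hars (24.9 ± 0.641 and 43.3 ± 6.3 TPM).

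Comparison of FI3OE with WT SVF-derived adipocytes asked how synthetase transcripts differ when active IRF3 is switched on in cultured fat cells. Most that passed the test were lower. With a threshold of 0.05 on the Benjamini-Hochberg adjusted p of edgeR's quasi-likelihood test, 16 of 38 synthetases were lower in FI3OE, 3 were higher and 19 did not pass, where 16.8% of all 16105 genes tested were lower and 20.2% higher. The log2 fold change was below 0 for 32 members and above 0 for 6, and its median was -0.09, against 0.00 over all genes tested. The 9 cytosolic genes that were lower were Eprs, Wars, Tarsl2, Iars, Vars, Aars, Sars, Qars and Yars, and the 3 that were higher were Kars, Rars and Dars. Of the mitochondrial genes 7 were lower and 0 were higher, with a median of -0.20 (-0.14 without Lars2, and -0.12 without the library WT SVF 3). Differences were small: none of the 38 met the study's second cutoff, an absolute log2 fold change of 1, together with the first, which 3.62% of all genes did. In bulk RNA, fewer cells of a type and less RNA per cell cannot be told apart.

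**Figure D1:**
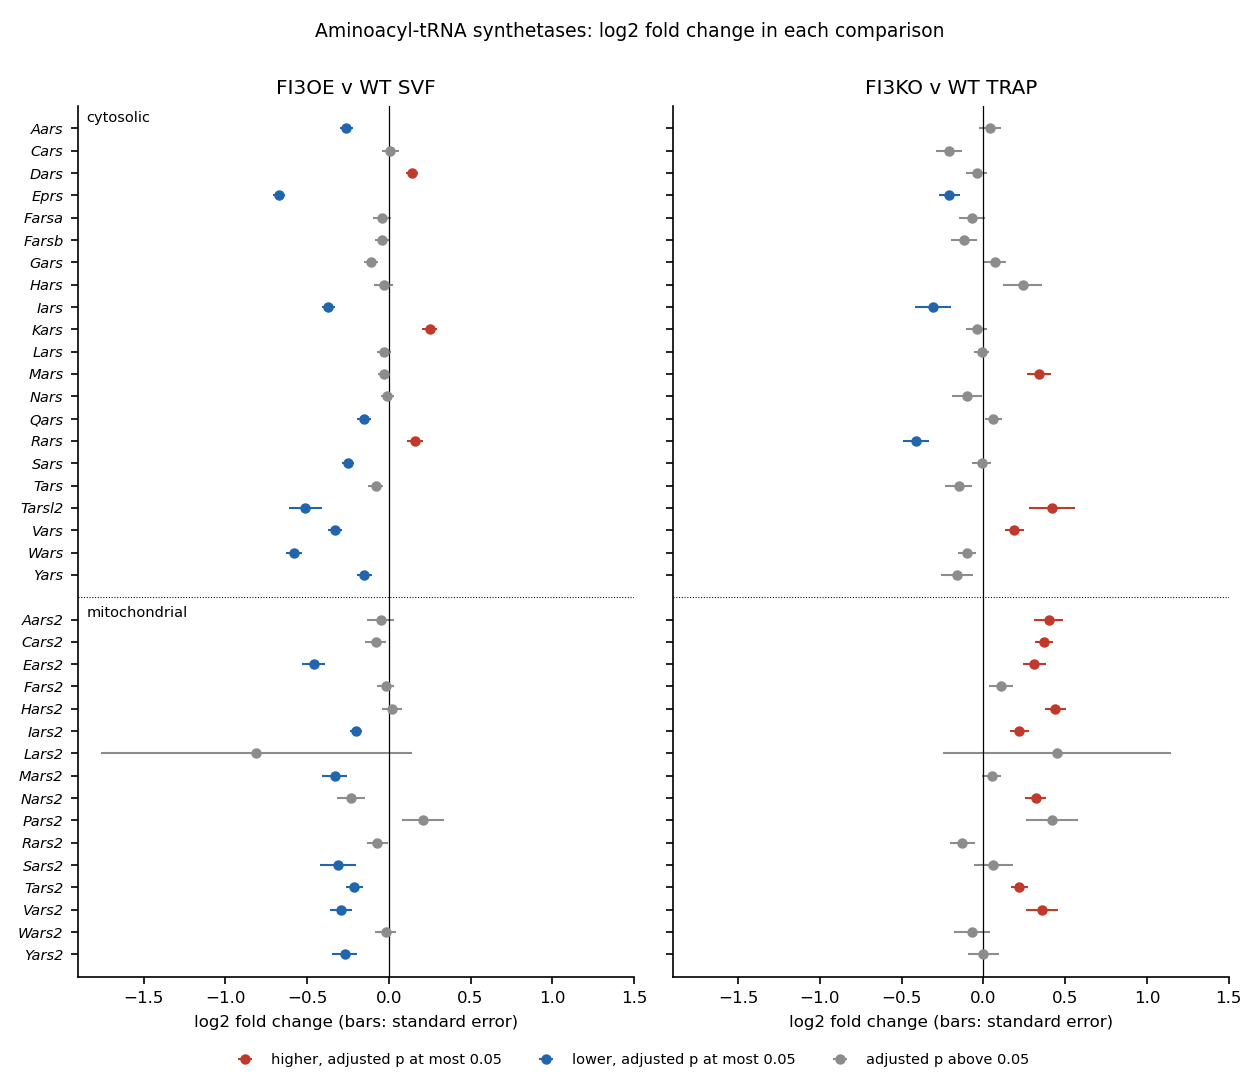
Log2 fold change (horizontal axis, with standard error bars) of each of 37 synthetase genes (vertical axis) in FI3OE against WT SVF-derived adipocytes (left) and in FI3KO against WT TRAP libraries (right), with colour giving genes higher, lower or not past an adjusted p of 0.05. On the left 16 genes are lower and 3 higher, while on the right 8 mitochondrial genes are higher and none is lower.

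The enzymes of the multi-tRNA synthetase complex moved in both directions. Of its 8 enzymes 3 were lower (Eprs, Iars, Qars), 3 were higher (Kars, Rars, Dars) and 2 did not pass (Lars and Mars, the leucyl and methionyl enzymes, both at -0.03). Of the 13 cytosolic genes outside the complex 6 were lower and none was higher. The 3 scaffold genes had log2 fold changes of 0.10 (Aimp2), 0.15 (Aimp1) and -0.14 (Eef1e1), and none passed.

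Eprs (chr1:185363044-185428360 of GRCm38, + strand) showed the largest difference among members past the test. Its libraries were at 230, 214 and 228 CPM in FI3OE and at 354, 358 and 358 CPM in WT SVF, a log2 fold change of -0.67 (standard error 0.038, edgeR adjusted p = 1.31e-07), or 0.628 times the WT level. Every FI3OE library lay far under every WT library. Iars, cytosolic isoleucyl-tRNA synthetase, was at 98.2, 93 and 98.4 CPM against 127, 122 and 126 CPM, a log2 fold change of -0.37 (standard error 0.038, edgeR adjusted p = 1.57e-05). Qars, the glutaminyl enzyme, was at 53.9, 54.1 and 53 CPM against 58.5, 58.1 and 62.2 CPM, a log2 fold change of -0.15 (standard error 0.042, edgeR adjusted p = 0.0139). The groups did not overlap for either gene, and the Qars call was lost without FI3OE 3 or without WT SVF 3 (edgeR adjusted p up to 0.0653).

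Kars, lysyl-tRNA synthetase (chr8:111993443-112011323, - strand), was the member that rose most. It was at 78.1, 83.9 and 75.3 CPM in FI3OE and 65.1, 66.7 and 67 CPM in WT SVF, a log2 fold change of 0.25 (standard error 0.045, edgeR adjusted p = 9.64e-04). Rars, the arginyl enzyme, was at 57.6, 56.7 and 56.6 CPM against 48.1, 50.9 and 53.7 CPM, a log2 fold change of 0.16 (edgeR adjusted p = 0.0169). Dars, the aspartyl enzyme, was at 86, 88.8 and 87.8 CPM against 77.7, 81.9 and 79.1 CPM, a log2 fold change of 0.14 (edgeR adjusted p = 0.0119). In all 3 genes the lowest FI3OE library was above the highest WT library. Leaving out a single library ended the call of Rars (WT SVF 1, edgeR adjusted p = 0.0656) and of Dars (WT SVF 3, edgeR adjusted p = 0.0563).

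Outside the complex the largest fall was that of Wars, tryptophanyl-tRNA synthetase (chr12:108860030-108894174, - strand). It was at 61.4, 58.5 and 65.4 CPM in FI3OE and 91.7, 95.3 and 90.3 CPM in WT SVF, a log2 fold change of -0.58 (standard error 0.046, edgeR adjusted p = 2.14e-06). All 23 interferon-stimulated genes tested on a separate list rose in the same libraries, with a median log2 fold change of 1.41, so Wars and these genes differed in opposite directions. Tarsl2 was at 5.58, 6.28 and 5.59 CPM against 7.89, 8.1 and 8.86 CPM, a log2 fold change of -0.51 (standard error 0.1, edgeR adjusted p = 0.00263). Vars, the valyl enzyme, was at 75.7, 71.8 and 73.1 CPM against 87.5, 97 and 93.4 CPM, a log2 fold change of -0.33 (standard error 0.044, edgeR adjusted p = 1.13e-04). The groups did not overlap for these 3 genes, though the Tarsl2 call was lost with the transcript length offset and with all 18 libraries in 1 fit (edgeR adjusted p up to 0.0988).

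Smaller falls were found for Aars, Sars and Yars, which charge alanine, serine and tyrosine tRNAs. Aars was at 187, 183 and 192 CPM in FI3OE against 216, 230 and 229 CPM in WT SVF, a log2 fold change of -0.26 (edgeR adjusted p = 2.83e-04). Sars was at 95.2, 101 and 98 CPM against 114, 118 and 118 CPM, a log2 fold change of -0.25 (edgeR adjusted p = 3.37e-04). Yars was at 59.2, 57.8 and 58.6 CPM against 61.4, 65.4 and 67.5 CPM, a log2 fold change of -0.15 (edgeR adjusted p = 0.0215). Again no FI3OE library reached the lowest WT library, but the Yars call was lost without FI3OE 3, WT SVF 2 or WT SVF 3 (edgeR adjusted p up to 0.0993). Gars was at 176, 163 and 172 CPM against 180, 188 and 183 CPM, and its log2 fold change of -0.11 did not pass (edgeR adjusted p = 0.0643) although the groups did not overlap. The other cytosolic genes that did not pass, Cars, Farsa, Farsb, Hars, Nars and Tars, had log2 fold changes of 0.01, -0.04, -0.04, -0.03, -0.01 and -0.08. By structural class, 5 of 9 class I enzymes and 3 of 11 class II enzymes were lower, with Eprs, which joins a class I and a class II enzyme, counted in neither.

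Among mitochondrial enzymes past the test Ears2, which charges glutamate and glutamine tRNAs in mitochondria (chr7:122037213-122067263, - strand), fell most. It was at 12.2, 11.2 and 12.1 CPM in FI3OE and 16.5, 16.3 and 15.9 CPM in WT SVF, a log2 fold change of -0.46 (standard error 0.07, edgeR adjusted p = 3.39e-04). Mars2 was at 17, 15.2 and 16.9 CPM against 21.8, 21.5 and 18.6 CPM, a log2 fold change of -0.33 (standard error 0.077, edgeR adjusted p = 0.00588). Both genes were separated between the groups, Mars2 by less because WT replicate 3 lay under the other WT libraries. Sars2 (seryl) was at 6.76, 7.03 and 7.94 CPM against 9.62, 8.06 and 9.37 CPM, a log2 fold change of -0.31 (standard error 0.11, edgeR adjusted p = 0.0414). Vars2 (valyl) was at 18.6, 20.9 and 18.2 CPM against 24.7, 23.1 and 22.8 CPM, a log2 fold change of -0.29 (standard error 0.067, edgeR adjusted p = 0.0051). The Vars2 call was lost with the transcript length offset (edgeR adjusted p = 0.248) and with all 18 libraries in 1 fit. For Sars2 the nearest libraries of the groups were almost level. Its call was lost in 10 of 18 alternatives, among them the DESeq2 Wald test. With all 18 libraries in 1 fit its edgeR adjusted p was 0.294. Its call was also lost in the fits without FI3OE 1, FI3OE 2, WT SVF 1 or WT SVF 3 (edgeR adjusted p up to 0.133).

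Yars2 (tyrosyl) was at 11.3, 11.3 and 12.6 CPM in FI3OE and 14.5, 14.3 and 13.8 CPM in WT SVF, a log2 fold change of -0.27 (edgeR adjusted p = 0.0158). Tars2 (threonyl) was at 33.7, 35.2 and 35.1 CPM against 38.2, 40.7 and 41.6 CPM, a log2 fold change of -0.21 (edgeR adjusted p = 0.0051). Iars2 was at 147, 149 and 155 CPM against 175, 168 and 174 CPM, a log2 fold change of -0.20 (edgeR adjusted p = 0.00172). None of these 3 genes overlapped between the groups, and the Yars2 call was lost without FI3OE 1 or WT SVF 1 (edgeR adjusted p up to 0.0607). Nars2, the asparaginyl enzyme, had a log2 fold change of -0.23 and just missed the threshold (edgeR adjusted p = 0.0549). Pars2, the prolyl enzyme, was the mitochondrial gene with the highest value, 0.21 (edgeR adjusted p = 0.229). Aars2, Cars2, Fars2, Hars2, Rars2 and Wars2 did not pass either and had log2 fold changes from -0.08 to 0.02.

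In all, 19 members were lower in every FI3OE library than in any WT SVF library and 3 were higher, against 23.8% and 25.7% of all genes tested. The cytosolic enzymes together summed to 1254.2–1300.8 TPM in FI3OE and 1493.9–1528.2 TPM in WT SVF, and the mitochondrial enzymes without Lars2 to 318–328 and 372–395 TPM. Both sums were therefore lower in each FI3OE library, while the mitochondrial share of the total, 20.2–20.4% in FI3OE and 19.8–20.9% in WT SVF, overlapped. In 1 fit of all 18 libraries 13 of the 19 calls were lost, while those of Eprs, Sars, Vars, Wars, Ears2 and Mars2 were kept in each of the 18 alternatives. Some other measures moved with the same groups. The noncoding gene Gm26917 took 5.45–5.615% of reads in FI3OE and 4.799–5.066% in WT SVF. Transcripts of the mitochondrial genome took 1.013–1.164% of reads in FI3OE and 2.117–2.306% in WT SVF. The adipocyte markers summed to 18983.6–19344.7 TPM in FI3OE and 20269.8–20649.3 TPM in WT SVF, and of 16 tested 5 were higher and 8 lower. The fibroblast and mesothelial markers summed to 6149.4–6371.6 and 6888.6–7078.5 TPM, and of 9 tested 1 was higher and 2 were lower. Log2 fold changes of these 9 were above 0 for 5 and below 0 for 4, with a median of 0.12. The macrophage markers summed to 3327.4–3335.6 and 3211.7–3403.8 TPM, which overlapped, and of 15 tested 4 were higher and 3 lower. No marker of these 3 lists was at 0 in all libraries of a group. The part of all these measures in the synthetase differences was not tested.

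**Figure D2:**
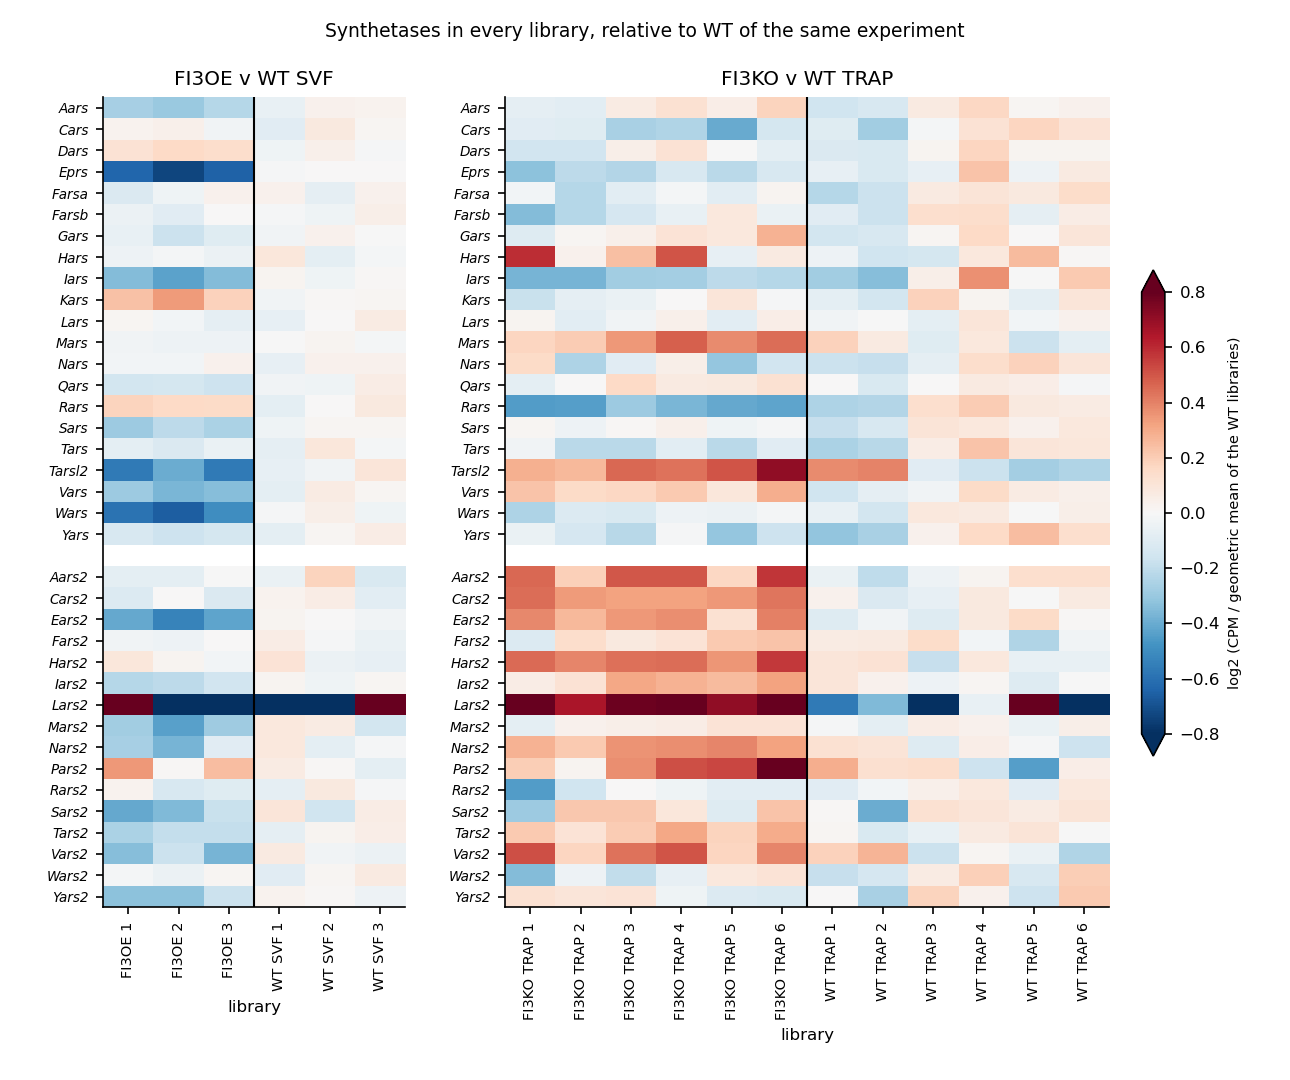
Level of each of 37 synthetase genes (rows) in each library (columns), as the log2 ratio of its CPM to the geometric mean of the WT libraries of the same experiment, on a colour scale from -0.8 to 0.8 beyond which values share the end colours. Eprs and Wars are low in all 3 FI3OE libraries, Hars2 and Cars2 are high in all 6 FI3KO TRAP libraries, and Lars2 passes the ends of the scale in libraries of every group.

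Genes that accompany charging were called at various rates in FI3OE, to be read against 20.2% of all genes higher and 16.8% lower. Of 7 genes for tRNA editing, selenocysteine tRNA and tRNA export, Xpot, the exportin of tRNA, fell (log2 fold change -0.69), whereas Dtd1, a deacylase that removes D-amino acids from tRNA, and Prorsd1 rose (0.97 and 0.22), or 28.6% higher and 14.3% lower. Of 7 cytosolic elongation factor genes Eef2k, the kinase of elongation factor EEF2, and Eef2 itself fell, by 0.27 and 0.17 on the log2 scale, and the other 5 did not pass. Of 20 genes for mitochondrial tRNA modification and translation Qrsl1 and Gatb, subunits of the amidotransferase that makes glutaminyl-tRNA in mitochondria, rose (0.31 and 0.17), Elac2, a tRNA processing nuclease, fell (-0.14) and 17 did not pass. Of 14 genes of RNA polymerase III, which transcribes tRNA genes, only Polr3b passed, with a log2 fold change of -0.19.

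Most amino acid response genes fell in FI3OE. Of 30 such genes 25 were lower and 3 were higher, with a median log2 fold change of -0.41. The largest falls were those of Trib3 (-1.95), a pseudokinase induced by ATF4, Phgdh (-1.45), the first enzyme of serine synthesis, Chac1 (-0.94) and Ddit3 (-0.93), and Atf4 itself had a log2 fold change of -0.41. Atf3, Sesn2 and Ddit4 rose, by 0.77, 0.41 and 0.41. The list was chosen with earlier results of these data known, so its direction is not independent evidence.

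Since synthetase genes and amino acid response genes were lower in the same libraries, promoters of the members were searched for the core of the amino acid response element, TGATGNAA, on both strands. The windows ran from 250 bases before to 50 bases after the start site in RefSeq (GRCm38.p6) and were matched for 28 of 38 members. Members without a window included Cars, Hars, Lars, Nars, Rars, Vars, Wars, Hars2 and Pars2. The motif stood in 5 of 14 cytosolic windows (35.7%) and 0 of 14 mitochondrial windows, and in 3.97% of all 32851 windows. For each of these 5 genes the 30 bases around a match are shown because the motif is what they share, read 5′ to 3′ on the strand of the gene, with the match in capitals. A match on the opposite strand appears as the reverse complement.
Aars, chr8:111033840-111033869, + strand, from base 10 after the start: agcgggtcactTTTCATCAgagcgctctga
Gars, chr6:55037960-55037989, + strand, 30 bases before the start: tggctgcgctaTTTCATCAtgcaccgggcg
Iars, chr13:49682126-49682155, + strand, from base 8 after the start: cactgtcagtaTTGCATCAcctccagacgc
Tars, chr15:11399655-11399684, - strand, 15 bases before the start: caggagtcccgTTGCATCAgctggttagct
Yars, chr4:129189895-129189924, + strand, from base 4 after the start: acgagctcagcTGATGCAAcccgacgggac

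The Yars match is on the strand of the gene and the other matches shown are on the opposite strand. Of the 5 genes Aars, Iars and Yars fell in FI3OE, and Gars and Tars had log2 fold changes of -0.11 and -0.08 that did not pass. Eprs, Sars, Qars and Tarsl2, which fell, have no such match in this window. None of the 7 mitochondrial genes that fell has a match either. The core of the interferon-stimulated response element, searched on both strands as GAAA, any 2 bases and GAAA, stood in 1 cytosolic window (Qars), no mitochondrial window and 3.44% of all windows. The gamma-activated site, TTCNNNGAA on either strand, stood in the windows of Aars, Kars and Nars2 and in 8.30% of all windows. A match describes the letters only and shows no binding.

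Comparison of FI3KO with WT TRAP libraries asked how ribosome-bound synthetase transcripts differ when adipocytes lack IRF3. Mitochondrial enzymes made up most of the members that passed, all of them higher. By the same edgeR test and threshold 11 of 38 synthetases were higher in FI3KO, 3 were lower and 24 did not pass, where 19.1% of all 13624 genes tested were higher and 18.3% lower. Of the 17 mitochondrial genes 8 were higher (Hars2, Aars2, Cars2, Vars2, Nars2, Ears2, Iars2, Tars2) and 0 were lower, and their median log2 fold change was 0.22, against 0.02 over all genes tested. Of the 21 cytosolic genes 3 were higher (Tarsl2, Mars, Vars) and 3 lower (Rars, Iars, Eprs), with a median of -0.04. This median was -0.07 without FI3KO TRAP 4, WT TRAP 1 or WT TRAP 2. With a GC and length trend removed it was 0.04, while the median over all genes also moved up, to 0.07. None of the 38 synthetases met both cutoffs of the study, which 6.61% of all genes did. The groups did not overlap for 5 members that were higher (Aars2, Cars2, Hars2, Nars2, Tars2) and 2 that were lower (Eprs, Rars), against 7.47% and 8.53% of all genes.

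The macrophage markers moved with genotype in the same libraries. Of 12 tested 10 were lower in FI3KO and 1, Cd14, was higher (log2 fold change 1.66), with a median of -1.55, and their summed levels, 25.0–56.8 against 56.9–147.0 TPM, did not overlap, with none of the 15 markers at 0 in all libraries of a group. Gm26917 took 9.166% and 6.347% of reads in FI3KO TRAP 1 and 2 and at most 3.877% in the other TRAP libraries. The adipocyte markers, at 57126–71616.6 TPM in FI3KO and 58118–69188 TPM in WT, did overlap as sums. Single markers still differed: of 16 tested 5 were higher and 3 lower, 3 of them past both cutoffs. Log2 fold changes of the adipocyte markers ran from -1.63 to 1.83. The fibroblast and mesothelial markers summed to 504–746 TPM in FI3KO and 672–1347.6 TPM in WT, with overlap, and of 11 tested 2 were higher, 1 was lower and 8 had log2 fold changes below 0. What part these measures have in the synthetase differences was not tested.

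Hars2, mitochondrial histidyl-tRNA synthetase, had the highest log2 fold change of the mitochondrial genes past the test. It ranged from 23.8 to 27.6 CPM in FI3KO (median 25.3) and from 16.4 to 20.2 CPM in WT (median 18.8), a log2 fold change of 0.44 (standard error 0.063, edgeR adjusted p = 3.68e-04), or 1.35 times the WT level. Cars2, the cysteinyl enzyme (chr8:11513977-11550783, - strand), ranged from 20.8 to 22.7 CPM (median 21.1) against 15.4 to 17.6 CPM (median 16.8), a log2 fold change of 0.37 (standard error 0.054, edgeR adjusted p = 3.97e-04). Neither gene overlapped between genotypes. Aars2, the alanyl enzyme, ranged from 15.1 to 20 CPM (median 18.7) against 11.7 to 14.8 CPM (median 13.4), a log2 fold change of 0.40 (standard error 0.088, edgeR adjusted p = 0.00405). Nars2 ranged from 16.4 to 18.6 CPM (median 18) against 12.6 to 15.4 CPM (median 14.4), a log2 fold change of 0.32 (standard error 0.065, edgeR adjusted p = 0.00254). Tars2 ranged from 34 to 39 CPM (median 36.3) against 28.9 to 33.8 CPM (median 31.6), a log2 fold change of 0.22 (standard error 0.054, edgeR adjusted p = 0.00755). In these 3 genes all 6 FI3KO libraries also lay above all WT libraries, for Aars2 and Tars2 with little room between the nearest. The Tars2 call was lost with the transcript length offset and in replicates 1 and 2 only (edgeR adjusted p up to 0.193).

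Ears2, Iars2 and Vars2 rose with some overlap. Ears2 ranged from 13.1 to 15.9 CPM in FI3KO (median 15.4) and from 11.2 to 13.4 CPM in WT (median 11.9), a log2 fold change of 0.31 (standard error 0.07, edgeR adjusted p = 0.0045), with 5 of 6 FI3KO libraries above all WT libraries. Iars2 ranged from 157 to 188 CPM (median 181) against 140 to 161 CPM (median 151), a log2 fold change of 0.22 (standard error 0.057, edgeR adjusted p = 0.00849), likewise with 5 of 6. Vars2 ranged from 22.2 to 28.2 CPM (median 26.3) against 16.7 to 23.8 CPM (median 19.4), a log2 fold change of 0.36 (standard error 0.098, edgeR adjusted p = 0.012), with 4 of 6. The Vars2 call was lost with protein-coding transcripts only (log2 fold change 0.11, edgeR adjusted p = 0.493). It was also lost without the 2 libraries richest in the Lars2 decay transcript and in replicates 1 and 2 only. Pars2 had a log2 fold change of 0.42 that just missed the threshold (edgeR adjusted p = 0.0503), at 3.39–6.04 CPM in FI3KO and 2.45–4.08 CPM in WT. Of the other mitochondrial genes Fars2 had a log2 fold change of 0.11, Mars2, Sars2 and Yars2 of 0.05, 0.06 and 0.00, and Rars2 and Wars2 of -0.13 and -0.07.

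Among cytosolic genes Rars (chr11:35808381-35834506, - strand) fell most. It ranged from 26.4 to 29.4 CPM in FI3KO (median 27) and from 30.4 to 41.5 CPM in WT (median 37.9), a log2 fold change of -0.41 (standard error 0.08, edgeR adjusted p = 0.00208). Eprs ranged from 163 to 187 CPM (median 176) against 188 to 239 CPM (median 197), a log2 fold change of -0.21 (standard error 0.064, edgeR adjusted p = 0.0221). All FI3KO libraries were under all WT libraries for both genes, for Eprs by 1 CPM at the nearest. The Eprs call was lost in 4 of 28 alternatives, which were no filter, the length offset, removal of the GC and length trend, and replicates 1 and 2 only (edgeR adjusted p up to 0.188). Iars ranged from 27.9 to 31.1 CPM (median 29.8) against 28.5 to 46.4 CPM (median 36.6), a log2 fold change of -0.31 (standard error 0.11, edgeR adjusted p = 0.0353). The call was lost in 13 of 28 alternatives, among them an offset for transcript length (-0.04, edgeR adjusted p = 0.828) and 8 of the 12 fits that left out 1 library (FI3KO TRAP 1, 2, 3 or 4, or WT TRAP 3, 4, 5 or 6, edgeR adjusted p up to 0.0797). The groups overlapped through WT replicates 1 and 2, which were at 29.7 and 28.5 CPM while the other WT libraries were at 36 CPM or more. All 3 are enzymes of the multi-tRNA synthetase complex, and the scaffold genes Aimp2 and Eef1e1 fell as well, by 0.52 and 0.34 on the log2 scale, while Aimp1 had a value of -0.18 that did not pass. The complex enzyme Mars went the other way, and Dars, Kars, Lars and Qars, at -0.04, -0.04, -0.01 and 0.06, did not pass.

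Mars, cytosolic methionyl-tRNA synthetase, ranged from 46.3 to 57.2 CPM in FI3KO (median 52.8) and from 36.5 to 46.6 CPM in WT (median 41), a log2 fold change of 0.34 (standard error 0.074, edgeR adjusted p = 0.00373). Tarsl2 ranged from 8.71 to 11.9 CPM (median 9.92) against 6.01 to 9.58 CPM (median 6.63), a log2 fold change of 0.42 (standard error 0.14, edgeR adjusted p = 0.027). Vars ranged from 55.6 to 64 CPM (median 59.4) against 46.7 to 58.2 CPM (median 52.4), a log2 fold change of 0.19 (standard error 0.058, edgeR adjusted p = 0.0237). The Vars call was lost in 11 of 28 alternatives, among them the replicate block and the transcript length offset (edgeR adjusted p = 0.287 with the offset). It was also lost without FI3KO TRAP 6, WT TRAP 1 or WT TRAP 2 (edgeR adjusted p up to 0.0659). The Tarsl2 call was lost in 10 alternatives, and its sign turned in replicates 1 and 2 only (edgeR adjusted p = 0.571). Among the 10 were the replicate block and the fits without FI3KO TRAP 3, 5 or 6 or WT TRAP 3, 4, 5 or 6. In the fits without 1 library its edgeR adjusted p was at most 0.0693. The groups overlapped for all 3 genes, and for Mars a single FI3KO library was below the highest WT library. Gars (98.5–128 CPM in FI3KO, 95.7–118 CPM in WT), Kars (37.3–45.1 and 38.2–48 CPM) and Wars (40.2–47.2 and 43–50.6 CPM) did not pass, with log2 fold changes of 0.07, -0.04 and -0.10. The other 9 cytosolic genes, which were Aars, Cars, Farsa, Farsb, Hars, Nars, Sars, Tars and Yars, had values from -0.21 (Cars) to 0.24 (Hars).

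The mitochondrial enzymes took a larger share of synthetase transcripts in FI3KO. Without Lars2 they made up 28.5–29.5% of the summed TPM of the 37 genes in FI3KO (mean 29.2 ± 0.388, SD, n = 6) and 23.8–27.9% in WT (25.4 ± 1.65, SD, n = 6), and the groups did not overlap. WT replicates 1 and 2, at 27.9% and 27.0%, lay closer to FI3KO than the other WT libraries, which were at 23.8–24.9%. Cytosolic sums overlapped, at 860–1028.2 TPM in FI3KO and 880–1091 TPM in WT, as did mitochondrial sums, at 349–410 and 326–361 TPM.

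**Figure D3:**
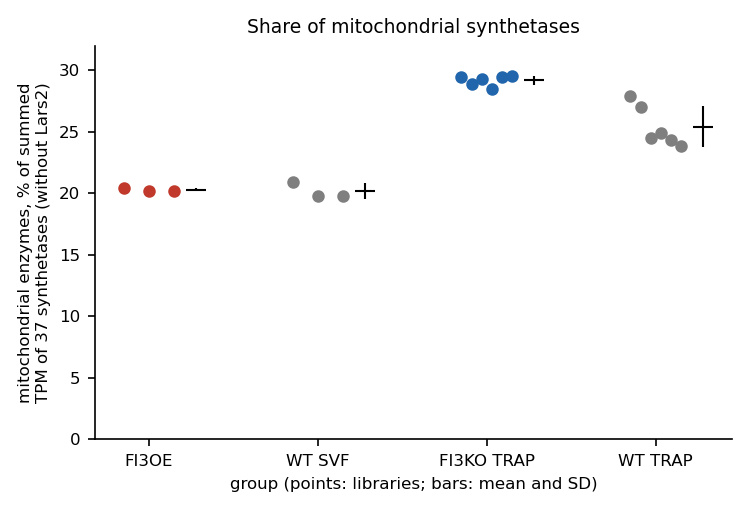
Share of the mitochondrial enzymes in the summed TPM of 37 synthetase genes (vertical axis, percent, Lars2 left out) in each library of the 4 groups, with points for libraries in the order of their replicate numbers and bars for mean and SD. FI3KO TRAP libraries sit at 28.5–29.5% and WT TRAP libraries at 23.8–27.9%, while FI3OE and WT SVF libraries overlap near 20%.

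More members were called in replicates 3 to 6 alone than in replicates 1 and 2 alone, which are the smaller set. Few genes of any kind passed in that smaller set, so the numbers of calls do not compare the size of differences. In replicates 3 to 6 alone, edgeR called 10 mitochondrial genes higher and 0 lower, and 2 cytosolic genes higher and 6 lower, where 25.7% of all genes were higher and 24.8% lower. In replicates 1 and 2 alone it called 1 mitochondrial gene (Lars2) higher, 0 lower and no cytosolic gene, where 1.58% and 1.98% of all genes were called. Mitochondrial genes had a median log2 fold change of 0.26 in the first set and 0.14 in the second. For cytosolic genes the medians were -0.08 and 0.07, which differ in sign. Hars2, Cars2, Aars2, Nars2, Ears2 and Tars2 had values of 0.50, 0.33, 0.37, 0.42, 0.28 and 0.22 in replicates 3 to 6 and of 0.32, 0.44, 0.47, 0.14, 0.40 and 0.22 in replicates 1 and 2. Vars2 had 0.49 (edgeR adjusted p = 8.62e-04) and 0.13 (edgeR adjusted p = 0.56). Of the cytosolic genes called over all libraries, Iars had -0.41 and -0.06, Eprs -0.22 and -0.16, and Vars 0.13 and 0.31.

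The genotype effect itself differed between the sets for 8 members, by an interaction term with an edgeR adjusted p of at most 0.05, which 26.5% of all genes also had. This term was fitted with WT TRAP 1 and 2, the closest pair, as separate libraries and not with them as 1 library. Tarsl2 had log2 fold changes of 0.73 (replicates 3 to 6) and -0.11 (replicates 1 and 2), a difference of 0.84 (standard error 0.14, edgeR adjusted p = 0.00141). Its WT libraries were at 9.43 and 9.58 CPM in replicates 1 and 2 and at 6.01–6.81 CPM in the others. Mars, at 0.48 and 0.07, Iars2, at 0.32 and 0.03, and Pars2, at 0.67 and -0.09, had larger values in replicates 3 to 6 as well. Rars, at -0.49 and -0.20, was more negative there. Cars, Tars and Yars had values of -0.35, -0.27 and -0.32 in replicates 3 to 6 and of 0.10, 0.12 and 0.20 in replicates 1 and 2.

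In the TRAP libraries the genes that act beside the synthetases are likewise read against 19.1% of all genes higher and 18.3% lower. Of 7 genes for tRNA editing, selenocysteine tRNA and export 4 rose in FI3KO (Dtd1 0.42, Pstk 0.39, Aarsd1 0.35, Dtd2 0.27) and Xpot fell (-0.19), and Aarsd1 encodes a protein that hydrolyses mischarged alanyl-tRNA. Of 20 genes for mitochondrial tRNA modification and translation 4 rose and none fell, and 20.0% higher is close to the share of all genes. These were Trit1 (0.54), which modifies an adenosine beside the anticodon, Tsfm (0.37) and Tufm (0.25), the mitochondrial elongation factors Ts and Tu, and the initiation factor Mtif3 (0.23). None of the 7 cytosolic elongation factor genes passed. Of 14 RNA polymerase III genes 4 rose and 3 fell, among them Polr3gl (0.99) and Polr3g (-0.54), alternative forms of the same subunit, Maf1 (0.39), a repressor of the polymerase, and Bdp1 (-0.34).

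The amino acid response genes were mixed in FI3KO. Of 30 genes 4 rose (Asns 0.75, Gpt2 0.46, Cebpg 0.45, Eif4ebp1 0.34) and 11 fell, with a median log2 fold change of -0.15. Leaving out genes whose mean log2 CPM was under 1, the largest falls were those of Cth (-1.26), Aldh18a1 (-1.16), Slc7a5 (-1.14), an importer of large neutral amino acids, and Slc38a2 (-0.86). Atf4 had a value of 0.07 and did not pass. Of 21 interferon-stimulated genes tested 3 fell (Zbp1 -1.19, Gbp2 -0.65, Ifit2 -0.26) and none rose, where the 14.3% lower is under the 18.3% of all genes.

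**Figure D4:**
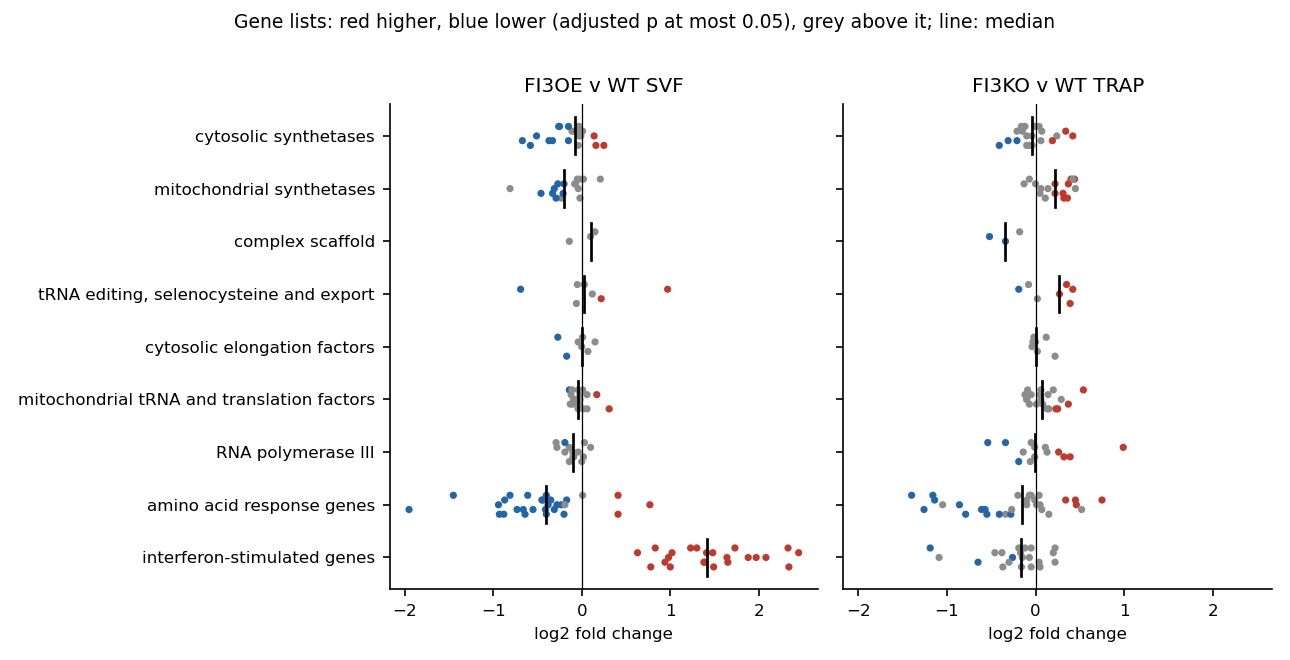
Log2 fold change (horizontal axis) of every gene of 9 lists (vertical axis) in FI3OE against WT SVF (left) and FI3KO against WT TRAP (right), with red points higher, blue points lower and grey points not past an adjusted p of 0.05, and a bar at each median. Amino acid response genes have a median of -0.41 on the left and -0.15 on the right, and interferon-stimulated genes 1.41 and -0.16.

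The 2 comparisons share no library. Of the 16 members that fell in FI3OE and the 11 that rose in FI3KO 6 were the same genes (Ears2, Iars2, Tars2, Vars2, Tarsl2, Vars), 37.5% of the first list and 54.5% of the second. The first share stands beside the 28.9% of all members that rose in FI3KO, and over all 13093 genes tested in both it was 22.2%, beside 19.5% that rose. The second share stands beside the 42.1% of all members that fell in FI3OE, and over all genes tested in both it was 21.4%, beside 18.9% that fell. Among mitochondrial genes the overlap was 4, or 57.1% of the 7 that fell in FI3OE and 50.0% of the 8 that rose in FI3KO, where 47.1% of all mitochondrial members rose in FI3KO and 41.2% fell in FI3OE. These overlaps are descriptions and were not tested. Eprs and Iars fell in both comparisons. Rars rose in FI3OE and fell in FI3KO. Hars2, Aars2 and Cars2, which had the largest values of the mitochondrial genes past the test in FI3KO, had log2 fold changes of 0.02, -0.05 and -0.08 in FI3OE, and Wars, which fell by 0.58 in FI3OE, had -0.10 in FI3KO.

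Lars2, mitochondrial leucyl-tRNA synthetase, was measured with little precision in both comparisons. Its libraries were at 388, 38.2 and 35.4 CPM in FI3OE and 79.1, 63.8 and 652 CPM in WT SVF, and ranged from 338 to 1343.6 CPM in FI3KO TRAP (median 388) and from 98.4 to 1700.6 CPM in WT TRAP (median 156). The log2 fold changes were -0.81 (standard error 0.95, edgeR adjusted p = 0.545) and 0.45 (standard error 0.7, edgeR adjusted p = 0.643). Single libraries decided these values. The FI3OE value was -2.85, past the threshold, without FI3OE 1 and 1.08, not past it, without WT SVF 3. In TRAP all 6 FI3KO libraries lay above 5 of the 6 WT libraries, and the value was 1.91, past the threshold, without WT TRAP 5 and -0.04 without FI3KO TRAP 4. Most of the reads in the high libraries belonged to the transcript annotated for nonsense-mediated decay. It held 42197 estimated reads in WT TRAP 5, 39500 in FI3KO TRAP 4 and 14870 in WT SVF 3, and none in FI3OE 2, FI3OE 3 and WT SVF 2.

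Its protein-coding transcript was far steadier, at 949–1267 reads in FI3OE, 1291–1626 in WT SVF, 2156–3931 in FI3KO TRAP and 1997–3042 in WT TRAP. With protein-coding transcripts only, an alternative chosen after seeing the data, Lars2 was lower in FI3OE (log2 fold change -0.64, standard error 0.15, edgeR adjusted p = 0.0104) and higher in FI3KO (0.32, standard error 0.11, edgeR adjusted p = 0.0402). In TPM, the coding transcript overlapped between FI3KO TRAP (39.9–63.0) and WT TRAP (31.9–45.3). Replicates 1 and 2 were at 43.6 and 39.9 TPM in FI3KO and 41.1 and 42.7 TPM in WT. FI3KO TRAP 4 (63.0 TPM) and FI3OE 1 (25.5 TPM), rich in the decay transcript, were the highest of their groups. WT TRAP 5 (44.4 TPM) and WT SVF 3 (31.2 TPM), also rich in it, were not. The part of the decay transcript in these calls was not tested. The share of reads on the noncoding gene Gm42418 was highest in the TRAP libraries richest in the decay transcript, 0.898% in WT TRAP 5 and 0.605% in FI3KO TRAP 4. It also moved with genotype, at 0.167–0.605% in FI3KO and 0.033–0.144% in the WT libraries other than WT TRAP 5. Its part in the Lars2 values and in those of the other members was not tested.

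**Figure D5:**
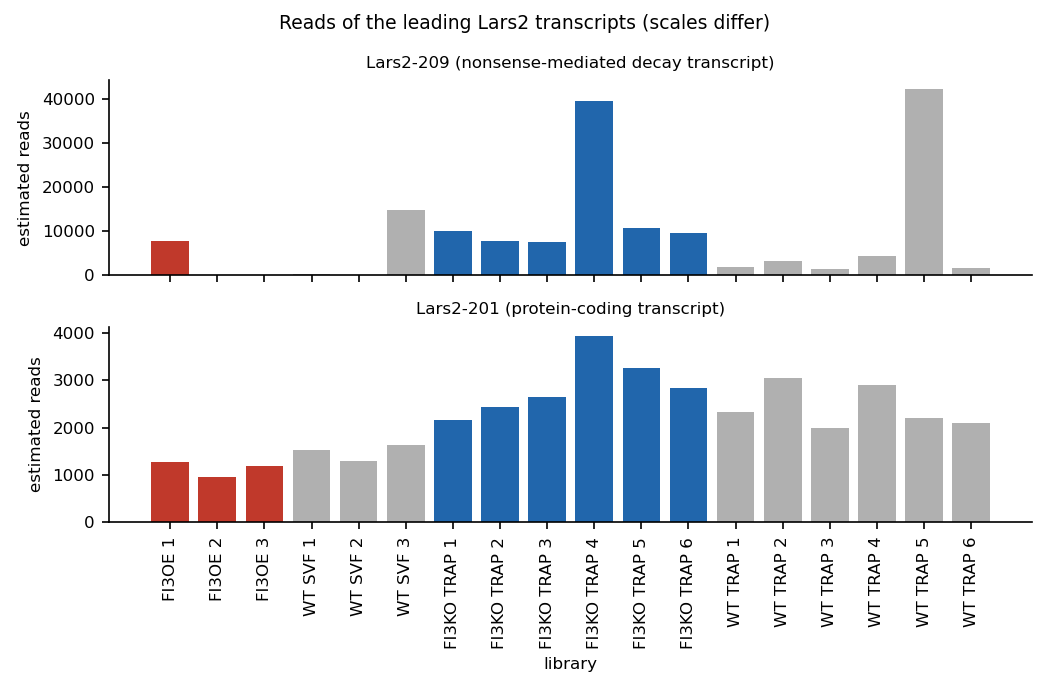
Estimated reads (vertical axes, on different scales) of the Lars2 transcript annotated for nonsense-mediated decay (top) and of the protein-coding Lars2 transcript (bottom) in each of the 18 libraries (horizontal axis), with FI3OE in red, FI3KO TRAP in blue and both WT groups in grey. The first runs from 0 to 42197 reads, with the highest bars in WT TRAP 5 and FI3KO TRAP 4, while the second runs from 949 to 3931.

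For several other members the transcript behind the gene value bears on its reading. Vars2 had 24.8% of its TPM over the 18 libraries on protein-coding transcripts and 62.3% on retained introns. Its coding transcripts alone were lower in FI3OE (-0.39, edgeR adjusted p = 0.00423), but in FI3KO they had a value of 0.11 (edgeR adjusted p = 0.493), under the 0.36 of the whole gene. With coding transcripts only, 4 calls in FI3OE were lost. For Qars, Yars and Sars2 the log2 fold changes of -0.17, -0.14 and -0.33 were about as large as for the whole gene (edgeR adjusted p = 0.532, 0.0677 and 0.0527), whereas that of Yars2 shrank to -0.05 (edgeR adjusted p = 0.817).

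Kars was carried by 2 coding transcripts, with 40.0% and 50.2% of its TPM. In FI3OE the first was at 45.8, 36.4 and 34 TPM against 37.4, 36.9 and 35.4 TPM, and the second at 25.1, 35.2 and 38.8 TPM against 28.8, 26.2 and 21.8 TPM, so neither transcript alone separated the groups as the whole gene did. Hars and Hars2, neighbouring genes on opposite strands, share 195 exonic bases, 8.0% and 4.6% of their exonic lengths, and Iars2 shares 24.2% of its exonic bases with Rab3gap2 and another gene. Aars shares 15.1%, Fars2 10.7%, Farsb 9.5% and Vars2 8.5% of exonic bases with other genes. The library kit does not mark strand, so reads in such stretches cannot be told apart.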

How the data were processed

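RNA-seq was analysed in 18 libraries of mouse adipocytes, ribosomal RNA being depleted and Nextera XT libraries, which carry no strand mark, sequenced on a HiSeq2500. The authors trimmed reads with fastp and quantified transcripts with Salmon 1.4.0 against GENCODE M24 of GRCm38, with sequence and GC bias corrected. The deposited tables give expected counts and TPM for each transcript as Salmon estimated them. Here the expected counts of a gene's transcripts were added up, taking genes from the older GENCODE M21, where 117850 of 118733 transcripts were found (0.375–1.079% of reads unmatched), and rounded. Genes passed filterByExpr, were scaled by TMM, and were tested over the whole table with edgeR's quasi-likelihood test (edgeR 4.0.16, R 4.3.3) and Benjamini-Hochberg adjustment, each experiment on its own. CPM values are TMM-scaled, TPM values were summed per gene, and standard errors were taken from the log2 fold change and its F statistic. Estimated counts also carry uncertainty in how reads were shared among transcripts. The fit was tested on simulated data.

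Calls used an adjusted p of at most 0.05, and a second rule added the study's absolute log2 fold change of 1. The members and gene lists were chosen with earlier results of these data known. Every member entered the counts and medians, and values of 1 member and 1 promoter site are not reported here. Values by library are given for members called in a comparison, up to 12 by absolute log2 fold change, and for Gars, Kars and Wars, and those of the called members past the first 12 (Sars, Iars2, Tars2, Rars, Qars, Yars and Dars in FI3OE, Eprs and Vars in FI3KO) were added after their values were seen. Of other lists all counts are given, with at most 4 called genes of largest change, and some more named after their values were seen.

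Alternatives were other size factors, library totals, the DESeq2 Wald test (1.42.0), other filters, an offset for transcript length, a replicate block, all 18 libraries in 1 fit, robust dispersion, removal of a GC and length trend, each library left out, TRAP replicates 3 to 6 or 1 and 2 only, these sets as a term, WT TRAP 1 and 2 as 1 library, and Gars and Kars left out. Protein-coding transcripts only, and the 2 libraries with the most reads on the Lars2 decay transcript left out, were chosen after seeing the data. Promoter windows came from RefSeq (GRCm38.p6).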

Additional observations from a re-analysis of the deposited data

Results flagged for a closer look

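In 3 of 76 groups of 6 libraries tested by Dixon's criterion (the gap to the nearest library against the range of the group), 1 library stood apart, where chance picks out about 1 in 20 groups, or 3.8. Lars2 was at 1343.6 CPM in FI3KO TRAP 4 and at 1700.6 CPM in WT TRAP 5, far above the other libraries of each group. Sars2, mitochondrial seryl-tRNA synthetase, was at 4.49 CPM in WT TRAP 2, below the other WT TRAP libraries.

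The genotype effect differed between TRAP replicates 3 to 6 and replicates 1 and 2, by the interaction term in edgeR, for 8 members. The log2 difference (the first set minus the second) was 0.84 for Tarsl2, 0.76 for Pars2, 0.41 for Mars and 0.29 for Iars2, and -0.29 for Rars, -0.39 for Tars, -0.44 for Cars and -0.51 for Yars. Since 26.5% of all genes also differed, and the sets are not given in the labels, what separates them was not tested.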

How the results depend on the processing

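Main counts were 3 cytosolic genes higher, 9 lower and 7 mitochondrial genes lower in FI3OE, and 3 cytosolic higher, 3 lower and 8 mitochondrial higher in FI3KO. In FI3OE an offset for transcript length left 1 cytosolic gene higher, 6 lower and 5 mitochondrial lower. It ended the calls of Dars, Qars, Rars, Tarsl2, Yars, Sars2, Vars2 and Yars2. There 1 fit of all 18 libraries left 0 cytosolic higher, 4 lower and 2 mitochondrial lower. In FI3KO cytosolic genes higher numbered 1 with the length offset, with the replicate block and without the 2 libraries richest in the Lars2 decay transcript. Cytosolic genes lower numbered 1 without a filter, with the length offset and with the GC and length trend removed. Replicates 3 to 6 alone gave 6 cytosolic lower, and replicates 1 and 2 alone gave 0 cytosolic higher, 0 lower and 1 mitochondrial higher, with Tarsl2 turned to -0.11. The causes were not tested. Leaving out 1 library gave 2 to 3 cytosolic higher, 7 to 9 lower and 5 to 8 mitochondrial lower in FI3OE, and 1 (without FI3KO TRAP 6) to 3 cytosolic higher, 2 to 5 (without WT TRAP 1) lower and 8 to 10 mitochondrial higher in FI3KO. No alternative called a mitochondrial gene higher in FI3OE or lower in FI3KO.

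With the replicate block, FI3OE had 3 cytosolic higher, 9 lower and 8 mitochondrial lower, and FI3KO 1, 3 and 8 mitochondrial higher. No pairing by number was seen. Same-numbered deviations from the group mean correlated at -0.05 to 0.02 (SVF) and -0.29 to 0.10 (TRAP), and 1 of 3 and 0 of 6 correlated best with their own number. With so few libraries per group, and deviations taken over all genes, these values cannot exclude that same-numbered libraries shared a preparation.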
